A study of Mus musculus with 6 samples.

Results

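The genes described here encode the machinery that copies DNA and the enzymes that make its deoxynucleotides. They were chosen by name, as 49 genes in 7 roles, and all 49 were among the 29493 genes of the count table. All 49 also passed the filter on low counts that left 18067 genes for testing. The data are RNA sequencing of HT22, a neuronal cell line derived from mouse hippocampus, in its stable derivative HT22-TR/TO-V5Klf13-1, in which the tet repressor holds back a transgene for V5-tagged KLF13, a Krüppel-like zinc-finger factor. All 6 libraries carry that transgene. Doxycycline at 1 µg/ml (Dox, n = 3) was compared with vehicle (n = 3), each for 8 hours, and the series asks how KLF13 acts in hippocampal neurons. No library of doxycycline in cells without the transgene was analysed here, so effects of the drug and of KLF13 cannot be told apart. A single line is named. Whether the 3 libraries of a group came from separate cultures is not given, so the p-values here reflect the scatter among these libraries only, which may be technical.

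DNA replication starts at origins bound by the origin recognition complex (ORC), where CDC6 and CDT1 load rings of the MCM helicase in G1. CDC45 and the GINS complex then activate the helicase, DNA polymerase alpha-primase lays primers, and polymerases epsilon and delta extend the strands on the sliding clamp PCNA. Many of these genes are transcribed in late G1 and S phase under E2F factors, and in bulk RNA a larger share of cells in S phase and more RNA per such cell cannot be told apart. Mature neurons do not divide, whereas HT22 cells proliferate in culture.

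Total counts per library ranged from 38566798 to 52930384. Klf13, the induced gene, held 37.0, 36.1 and 39.1 CPM with vehicle and 205, 188 and 184 CPM with Dox (5.13-fold higher, edgeR adjusted p = 1.5e-06), so that every Dox library lay above every vehicle library. CPM are counts scaled to the library's TMM-normalized total. Its counts may include transgene reads. Of 14 neuronal markers 9 were in the table, with a summed level of 77.0 to 78.9 CPM with vehicle and 24.8 to 25.2 CPM with Dox, mostly from Tubb3. Map2, Nefh, Grin1 and Slc17a7 were each at most 0.265 CPM in every library. Of the 5 neuronal markers tested, Tubb3, Syn1 and Eno2 were lower with Dox, where Syn1 had 10.8 to 11.9 CPM with vehicle and 6.44 to 6.75 CPM with Dox, and Eno2 4.73 to 4.90 and 2.51 to 2.72 CPM. The 6 fibroblast markers summed to 9903 to 10435 CPM with vehicle and 8092 to 8478 CPM with Dox. Summed markers were 37.3 to 40.1 and 44.1 to 47.3 CPM for astrocytes (5 of 6 in the table), 29.9 to 32.1 and 19.9 to 20.8 CPM for microglia (6 of 6), and 2.14 to 3.05 and 1.42 to 1.69 CPM for oligodendrocytes (4 of 5), in the same order. These sums also rest on few genes. The astrocyte sum came mostly from Slc1a3 (38.4 CPM with vehicle and 45.7 with Dox on average). The microglia sum came mostly from Tmem119 (30.4 and 19.9 CPM). Every other gene of both lists was at most 0.365 CPM in each library. The fibroblast sum came mostly from Col1a1, Col1a2 and Col3a1. The part of these marker shifts in the results below was not tested.

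Most replication genes rose with Dox. By edgeR's quasi-likelihood test, 37 of the 49 genes were higher at an adjusted p under 0.05, 6 were lower and 6 did not pass. Of all 18067 genes tested, 25.9% were higher, 28.8% were lower and 54.7% passed in either direction. A filter on a mean CPM of at least 5 left 11629 genes, all 49 among them. Of these 11629, 35% were higher, 35.9% were lower and 70.9% passed in either direction, beside 37 higher and 6 lower of the 49. The median log2 fold change of the 49 genes was 0.36, beside 0.018 for all genes tested. By role it was 0.45 for origin licensing, 0.56 for the helicase, 0.19 for polymerases and primase, 0.34 for the clamp and its loader, 0.45 for single-strand binding and Okazaki fragment joining, 0.24 for nucleotide supply and 0.17 for chromatin assembly. The rises were moderate: 11 of the 49 genes were higher by at least 1.5-fold (7.32% of all genes tested) and 1, Rrm2, by at least 2-fold. A single gene, Gins2, was lower by at least 1.5-fold (14.8% of all genes tested). Every Dox library lay above every vehicle library for 38 genes (31.8% of all genes tested), below for 7 (32.2%), and the groups overlapped for 4. Together the 49 genes took 0.571 to 0.597% of all counts in the vehicle libraries and 0.782 to 0.803% in the Dox libraries.

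**Figure D1:**
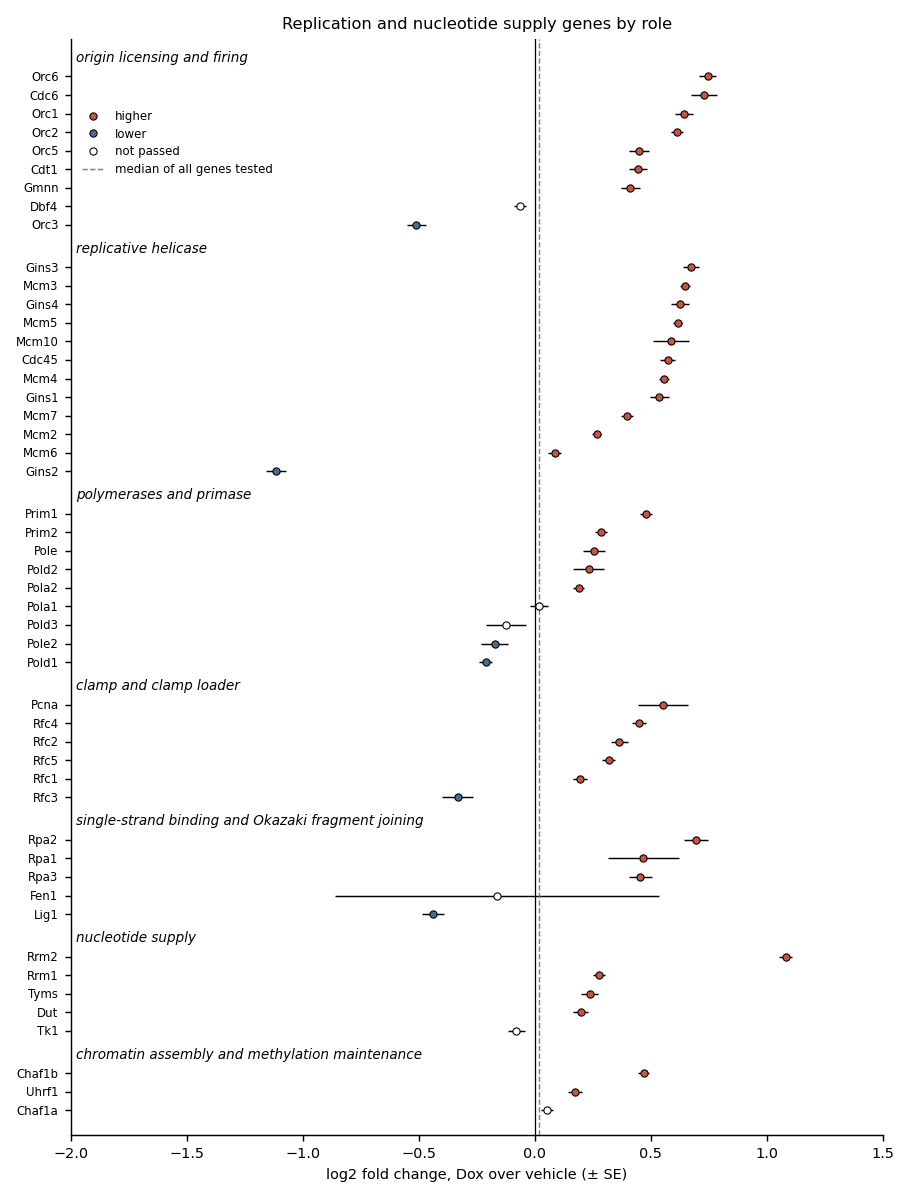
Log2 fold change, Dox over vehicle, of each of the 49 genes with its SE from edgeR, grouped by role; filled points passed the test (red higher, blue lower), open points did not, and the dashed line is the median of all genes tested, 0.018. Most points lie right of the line, Gins2 lies far to the left at -1.12, and Fen1 has by far the widest error.

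The balance over all genes depended on scaling. Upper-quartile scaling moved the median of all genes from 0.018 to 0.11 and the share of calls that were higher from 47.4% to 58.4%. It gave 39 of the 49 genes higher and 5 lower, beside 34.6% and 24.7% of all genes. The gap between the median of the 49 genes and that of all genes was 0.34 in the main analysis and 0.35 under that scaling. A change of scaling moves all genes by about the same amount, so this gap could hardly change and is no check on scaling. In the authors' deposited table, whose calls have an adjusted p of at most 0.01, 35 of the 49 genes were called higher and 5 lower, where 17.9% and 22.4% of its genes with an adjusted p were called in those directions. Of the 49 genes, 16 share at least 50 exonic bases with another annotated gene, and among the 33 that do not, 27 were higher, 3 lower and 3 did not pass, a count added after the data were seen.

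RefSeq promoters (GRCm38.p6) were given for 41 of the 49 genes, and their 250 bases before the start were searched on both strands. The E2F type site, spelled TTTCCCGC, TTTCGCGC, TTTGCCGC or TTTGGCGC, was found in 10 of the 41 genes (24.4%), in 3.84% of 10219 genes tested with a promoter and in 1.86% of all 32851 windows. Its 10 genes were Cdc6, Gins3, Mcm5, Mcm6, Mcm7, Orc1 and Uhrf1, which were higher with Dox, Orc3 and Rfc3, which were lower, and Pola1, which did not pass. CCAAT stood in 24 of the 41 genes (58.5%, beside 41.3% of genes tested), in 21 of the 30 called higher and 1 of the 5 called lower. The GC-rich spellings GGGCGG and CACCC, which occur in boxes bound by SP and KLF factors, stood in 73.2% and 56.1% of the 41 genes and in 61.7% and 60.4% of genes tested. CCAAT was found in 33.8%, GGGCGG in 32.7% and CACCC in 52.0% of all windows. Spellings on opposite strands can overlap, and a match is a description of letters, not of binding.

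Windows are shown for 5 genes chosen after their values were seen: Rrm2, the largest rise; Mcm5 and Mcm6, helicase partners that rose by unlike amounts; and Orc1 and Orc3, ORC subunits that moved in opposite directions. Capitals mark the E2F type site and CCAAT on either strand. The windows are chr12:24708004-24708253 (plus strand), chr8:75109259-75109508 (plus), chr1:128359706-128359955 (minus), chr4:108579204-108579453 (plus) and chr4:34614943-34615192 (minus), in that order.
Rrm2: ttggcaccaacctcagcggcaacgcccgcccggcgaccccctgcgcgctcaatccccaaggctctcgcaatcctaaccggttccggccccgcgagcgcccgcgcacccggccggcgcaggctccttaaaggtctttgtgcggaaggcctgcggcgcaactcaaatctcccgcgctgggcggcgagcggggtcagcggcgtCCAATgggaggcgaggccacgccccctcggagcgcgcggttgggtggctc
Mcm5: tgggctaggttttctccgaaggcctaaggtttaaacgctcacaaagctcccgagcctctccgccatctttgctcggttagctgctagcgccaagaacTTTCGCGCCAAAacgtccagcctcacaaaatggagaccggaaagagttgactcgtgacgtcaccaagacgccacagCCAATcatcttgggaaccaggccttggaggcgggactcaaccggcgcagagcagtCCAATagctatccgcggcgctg
Mcm6: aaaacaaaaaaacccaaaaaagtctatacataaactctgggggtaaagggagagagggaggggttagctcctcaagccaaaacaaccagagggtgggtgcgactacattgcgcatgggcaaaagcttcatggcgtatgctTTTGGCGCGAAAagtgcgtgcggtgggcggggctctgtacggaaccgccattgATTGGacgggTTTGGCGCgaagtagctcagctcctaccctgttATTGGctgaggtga
Orc1: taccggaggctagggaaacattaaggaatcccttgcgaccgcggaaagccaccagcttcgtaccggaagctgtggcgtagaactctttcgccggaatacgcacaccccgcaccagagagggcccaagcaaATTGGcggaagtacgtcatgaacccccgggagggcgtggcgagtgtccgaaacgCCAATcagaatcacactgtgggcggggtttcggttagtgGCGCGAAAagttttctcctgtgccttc
Orc3: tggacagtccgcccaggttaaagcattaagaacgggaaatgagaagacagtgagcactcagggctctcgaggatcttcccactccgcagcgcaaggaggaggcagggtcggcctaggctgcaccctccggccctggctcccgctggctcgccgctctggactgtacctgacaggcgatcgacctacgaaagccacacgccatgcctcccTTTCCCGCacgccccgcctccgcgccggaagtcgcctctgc
Rrm2 holds no E2F type site in this window and 1 CCAAT, 50 bases before the start. Mcm5 holds a pair of overlapping sites from position -153 (position -1 is the last base before the start), and Mcm6 holds an overlapping pair from -110 and a further site at -47. Orc1 has its site at -27 and Orc3 at -41, so a gene that rose and a gene that fell both have a site near the start.

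Among the 9 genes of origin licensing and firing, 7 rose, 1 fell and 1 did not pass. Orc6, an ORC subunit, held 104, 97.0 and 105 CPM with vehicle and 169.8, 170.0 and 173 CPM with Dox, higher by 1.68-fold (0.74 ± 0.035 SE on the log2 scale, adjusted p = 9.5e-06 by edgeR). Orc6 shares 171 exonic bases with Vps35 on the other strand. Vps35 had 358 CPM with vehicle and 298 CPM with Dox on average (log2 fold change -0.27). Cdc6, the loader of the MCM rings, held 78.2, 77.2 and 84.4 CPM with vehicle and 135, 124 and 139 CPM with Dox (1.66-fold, adjusted p = 6.7e-05). Both rises were larger than the spread of their libraries, which was wider for Cdc6. Orc1, an ATPase subunit of ORC, held 40.9, 44.1 and 43.3 CPM with vehicle and 65.9, 67.1 and 67.3 CPM with Dox (1.56-fold, adjusted p = 2e-05), and its promoter is among those printed above. Orc1 shares 376 exonic bases with Gm12743 on the other strand. Orc2 held 162, 161 and 168 CPM with vehicle and 253, 248 and 252 CPM with Dox (1.53-fold, adjusted p = 5.9e-06). Orc2 shares 1150 exonic bases with Nif3l1 on the other strand, and Nif3l1 had a log2 fold change of 0.27. Orc5 rose by 0.45 on the log2 scale.

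Orc3, a further ORC subunit, moved the other way. It held 35.9, 37.9 and 35.3 CPM with vehicle and 25.2, 25.7 and 25.6 CPM with Dox, a 1.43-fold fall (log2 fold change -0.51 ± 0.041 SE, adjusted p = 8.5e-05). All 3 Dox libraries lay below the vehicle libraries, and Orc3 shares fewer than 50 exonic bases with any other annotated gene. Of the 5 ORC genes among the 49, 4 rose and 1 fell. Orc4, a subunit outside the 49 genes and named after its values were seen, rose from 58.1 ± 2.57 to 65.2 ± 1.91 CPM (SD, n = 3; adjusted p = 0.016 by edgeR), a call that ended with the offset for transcript GC content (log2 fold change 0.069, adjusted p = 0.14) and without Dox replicate 3 (0.05). Per length, the levels of the 5 with vehicle ran from 9.16 ± 0.194 CPM per kb of transcript for Orc5 to 69.5 ± 2.93 for Orc6 (SD, n = 3), and Orc1 and Orc3 changed places, from 14.2 ± 0.562 and 15.8 ± 0.604 with vehicle to 22.2 ± 0.243 and 11.1 ± 0.135 with Dox. These levels use the longest annotated protein-coding transcript.

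The licensing factor Cdt1 and its inhibitor Gmnn, geminin, both rose. Cdt1 held 64.5, 67.7 and 62.4 CPM with vehicle and 89.3, 89.1 and 86.4 CPM with Dox (log2 fold change 0.44 ± 0.038 SE, adjusted p = 1e-04). Gmnn held 46.7, 45.3 and 46.3 CPM with vehicle and 61.2, 58.6 and 64.2 CPM with Dox (0.41 ± 0.041 SE, adjusted p = 0.00022). In neither gene did the groups overlap. Dbf4, the activator of the CDC7 kinase that fires origins, had 131 to 137 CPM with vehicle and 127 to 128 CPM with Dox and did not pass (log2 fold change -0.065 ± 0.027 SE, adjusted p = 0.083). Its groups did not overlap, and its direction turned to 0.029 with upper-quartile scaling.

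Of the 12 genes of the replicative helicase, 11 rose and 1 fell. The 6 MCM2-7 genes, whose products form 1 ring, all passed as higher, by unequal amounts. Mcm3 held 352, 349 and 341 CPM with vehicle and 545, 540.3 and 546 CPM with Dox (1.57-fold, log2 fold change 0.65 ± 0.020 SE, adjusted p = 2.6e-06). Mcm5 held 258, 258 and 253 CPM with vehicle and 396, 390.1 and 394 CPM with Dox (1.53-fold, adjusted p = 2.8e-06). In both genes the Dox libraries were within a few CPM of each other and far above the vehicle libraries. Mcm4, Mcm7 and Mcm2 rose by 0.56, 0.40 and 0.27 on the log2 scale. Mcm6 held 335, 333 and 323 CPM with vehicle and 347, 344 and 361 CPM with Dox, a log2 fold change of 0.086 ± 0.028 SE (adjusted p = 0.04). The Mcm6 groups did not overlap, but the call ended with no filter on low counts (adjusted p = 0.058), with the replicate number as a block (0.085), with an offset for transcript GC content (0.077) and without Vehicle replicate 1, 2 or 3 or Dox replicate 1 or 3 (0.059 to 0.13). Its log2 fold change was 0.18 with upper-quartile scaling and with an offset for transcript length.

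Per length of transcript, levels of the ring genes stood closer together with vehicle than with Dox. Mcm4, Mcm5 and Mcm6 had 75.9 ± 0.740, 75.9 ± 0.894 and 75.9 ± 1.5 CPM per kb with vehicle (SD, n = 3), which did not differ beyond their spread. With Dox they had 112 ± 1.73, 116 ± 0.827 and 80.5 ± 2.15 CPM per kb, so that Mcm6 lay below the other two. Mcm3 was the highest in both groups (115 ± 1.76 and 179 ± 0.999). Mcm2, the lowest with vehicle at 65.5 ± 0.749, was beside Mcm6 with Dox at 78.8 ± 0.251. Mcm7 had 85.2 ± 1.51 and 112 ± 1.99 CPM per kb.

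**Figure D2:**
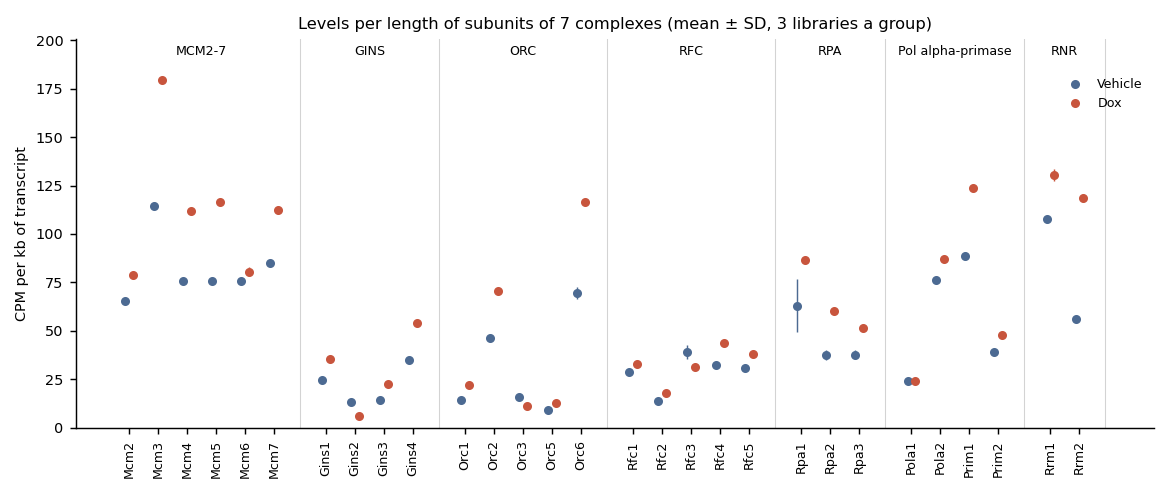
Level per kb of longest protein-coding transcript (CPM per kb, mean ± SD of 3 libraries) with vehicle and Dox for the subunit genes of 7 complexes that are among the 49, where RFC is the clamp loader, RPA the single-strand binding complex and RNR ribonucleotide reductase. Mcm4, Mcm5 and Mcm6 lie together with vehicle, Mcm6 lies below the other two with Dox, and Gins2, Orc3 and Rfc3 are the subunits of their complexes that were lower with Dox.

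Of the 4 GINS genes, 3 rose and 1 fell. Gins3 held 34.8, 36.7 and 34.8 CPM with vehicle and 56.6, 55.7 and 57.0 CPM with Dox (1.59-fold, adjusted p = 1.3e-05). Gins4 held 49.2, 45.7 and 46.7 CPM with vehicle and 73.6, 71.0 and 73.7 CPM with Dox (1.54-fold, adjusted p = 2.4e-05), and Gins1 rose by 0.54 on the log2 scale. Gins2, which encodes the PSF2 subunit, held 52.6, 49.3 and 50.9 CPM with vehicle and 22.7, 24.3 and 23.5 CPM with Dox, a 2.17-fold fall (log2 fold change -1.12 ± 0.043 SE, adjusted p = 4.7e-06). The Dox libraries of Gins2 all lay far below its vehicle libraries. Gins2 lies on the minus strand at chromosome 8, 120578633 to 120589304 (GRCm38, GENCODE M21), and 2758 of its exonic bases are shared with Gse1 on the plus strand. Gse1 itself held 15.6, 17.8 and 16.8 CPM with vehicle and 8.69, 9.26 and 8.55 CPM with Dox (log2 fold change -0.92, adjusted p = 5e-05), also with every Dox library below the vehicle libraries. The strand setting of the counting is not given, so reads of Gins2 and Gse1 in the shared bases may not be told apart, and the part of Gse1 in the fall was not tested.

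Mcm10 and Cdc45 also rose. Mcm10, which helps to activate the helicase, held 64.5, 62.2 and 55.5 CPM with vehicle and 95.4, 83.0 and 95.3 CPM with Dox (1.5-fold, adjusted p = 0.00083), with Dox replicate 2 below the other Dox libraries and still above all vehicle libraries. Cdc45, the helicase cofactor, rose from 78.3 ± 1.2 to 116 ± 3.18 CPM on average (± SD over 3 libraries a group, edgeR adjusted p = 1.4e-05). Cdc45 shares 209 exonic bases with Ufd1 on the other strand, and Ufd1 had a log2 fold change of 0.32. Summed over the 12 helicase genes, the level went from 1979 ± 26.8 to 2685 ± 24.8 CPM (SD, n = 3 each).

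Among the 9 polymerase and primase genes the response was mixed, with 5 higher, 2 lower and 2 not past the test. Prim1, the catalytic primase subunit, held 137, 140.2 and 144 CPM with vehicle and 194, 198 and 196 CPM with Dox (1.39-fold, log2 fold change 0.48 ± 0.026 SE, adjusted p = 1.5e-05). Prim2, the large primase subunit, held 76.8, 77.2 and 78.4 CPM with vehicle and 93.8, 93.2 and 95.9 CPM with Dox (0.28 ± 0.026 SE, adjusted p = 0.00014). Both primase genes had separate groups, with the larger rise in Prim1. Pola2, the accessory subunit of polymerase alpha, held 186, 188 and 181 CPM with vehicle and 213, 210.3 and 208 CPM with Dox (0.19 ± 0.024 SE, adjusted p = 0.00068). Pola1, its catalytic subunit, held 122, 134 and 127 CPM with vehicle and 131, 130.4 and 127 CPM with Dox, with overlapping groups and no call (0.018 ± 0.038 SE, adjusted p = 0.71). Pola1 was called higher with upper-quartile scaling (0.11) and with the transcript length offset (0.15), and its sign turned with the GC content offset (-0.028) and without Vehicle replicate 1 (-0.013).

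Subunits of polymerases epsilon and delta were called in opposite directions. Pole, the catalytic subunit of the leading-strand polymerase epsilon, held 163, 182 and 173 CPM with vehicle and 208, 212 and 198 CPM with Dox (0.26 ± 0.048 SE, adjusted p = 0.0043), and the length offset gave 0.44. Pole2, its second subunit, held 31.1, 34.4 and 30.3 CPM with vehicle and 29.1, 27.6 and 28.3 CPM with Dox (-0.17 ± 0.058 SE, adjusted p = 0.042). The groups were separate in both, but the Pole2 call ended with upper-quartile scaling (adjusted p = 0.26), with no filter (0.094), with the replicate block (0.081) and without any 1 library other than Vehicle replicate 3 (0.059 to 0.10). Pole2 shares 245 exonic bases with Gm49384 on the same strand. Pold1, the catalytic subunit of the lagging-strand polymerase delta, held 93.4, 95.4 and 91.0 CPM with vehicle and 81.1, 79.4 and 81.0 CPM with Dox (-0.21 ± 0.028 SE, adjusted p = 0.00087), and the GC content offset turned its direction (0.049, adjusted p = 0.23), while upper-quartile scaling gave -0.12. Pold2, the accessory subunit, held 81.3, 69.4 and 78.0 CPM with vehicle and 92.8, 91.5 and 84.3 CPM with Dox (0.23 ± 0.068 SE, adjusted p = 0.027). The Dox libraries of Pold1 all lay below and those of Pold2 all above the vehicle libraries, and the GC content offset gave 0.44 for Pold2. The Pold2 call ended with the length offset (adjusted p = 0.052) and without Vehicle replicate 3, Dox replicate 1 or Dox replicate 2 (0.055 to 0.091). Pold3, a further delta subunit, held 27.2, 31.7 and 29.4 CPM with vehicle and 29.5, 24.6 and 27.1 CPM with Dox, which overlapped (-0.13 ± 0.085 SE, adjusted p = 0.26).

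Of the 6 clamp and clamp loader genes, 5 rose and 1 fell. Pcna, the sliding clamp, held 195, 198 and 167 CPM with vehicle and 315, 253 and 254 CPM with Dox (1.47-fold, 0.55 ± 0.11 SE, adjusted p = 0.0048). Dox replicate 1 stood above the other 2 Dox libraries, and all 3 lay above the vehicle libraries. The clamp is loaded by replication factor C, a complex of 5 subunits. Rfc4, one of its small subunits, held 40.6, 41.2 and 41.4 CPM with vehicle and 56.4, 56.8 and 54.8 CPM with Dox (0.45 ± 0.030 SE, adjusted p = 3.9e-05), and Rfc2, Rfc5 and Rfc1 rose by 0.36, 0.32 and 0.19 on the log2 scale (Rfc1 by 0.31 with the length offset). Rfc4 shares 194 exonic bases with Eif4a2 on the other strand. Eif4a2 had 248 CPM with vehicle and 290 CPM with Dox on average (log2 fold change 0.22), and its part in the Rfc4 counts was not tested. Rfc2 shares 952 exonic bases with Lat2 and Rfc5 shares 499 with Wsb2, both on the other strand. Rfc3, another small subunit, held 49.6, 56.9 and 48.3 CPM with vehicle and 41.0, 41.2 and 40.7 CPM with Dox (-0.33 ± 0.065 SE, adjusted p = 0.005). Its vehicle libraries varied more than its Dox libraries, and the groups did not overlap. Rfc3 had the highest level per length of the 5 with vehicle, 39.2 ± 3.54 CPM per kb, and 31.1 ± 0.193 with Dox, when Rfc4 had 43.8 ± 0.857 and Rfc5 38.1 ± 1.01 (SD, n = 3).

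Among the single-strand binding and Okazaki fragment genes, the 3 subunits of replication protein A (RPA) rose while the ligase fell. Rpa2 held 72.5, 63.2 and 67.5 CPM with vehicle and 112, 109 and 107 CPM with Dox (1.62-fold, 0.69 ± 0.053 SE, adjusted p = 6.4e-05), and Rpa3 rose by 0.45 on the log2 scale. Rpa1, the large subunit, held 359.9, 358 and 239 CPM with vehicle and 442, 439.7 and 439.8 CPM with Dox (0.47 ± 0.15 SE, adjusted p = 0.041). Vehicle replicate 3 stood apart for Rpa1, while the Dox libraries agreed within a few CPM. Without that library the log2 fold change of Rpa1 was 0.29 (adjusted p = 3e-04), and the call ended with no filter (adjusted p = 0.05) and without Dox replicate 1, 2 or 3 (0.085 to 0.089). Lig1, the ligase that joins Okazaki fragments, held 114, 117 and 112 CPM with vehicle and 87.7, 86.9 and 78.3 CPM with Dox, a 1.36-fold fall (-0.44 ± 0.049 SE, adjusted p = 0.00037). Every Dox library of Lig1 lay below the vehicle libraries, and Lig1 shares 247 exonic bases with Zswim9 on the other strand.

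Fen1, the flap nuclease that trims Okazaki fragments, did not pass, and its libraries varied widely within each group. It held 109, 111 and 36.2 CPM with vehicle and 149.6, 52.8 and 26.2 CPM with Dox, or 4120, 4605 and 1878 counts with vehicle and 6370, 2606 and 1217 with Dox. Vehicle replicate 3 and Dox replicate 3 were the lowest of their groups, and the coefficient of variation was 49.9% with vehicle and 85.3% with Dox, where the other 48 genes had at most 21.7% and 12.9%. Its log2 fold change was -0.16 ± 0.70 SE (adjusted p = 0.87) and ranged from -1.10 to 0.25 when 1 library was left out. Fen1 lies on the minus strand at chromosome 19, 10199132 to 10204169 (GRCm38) and shares 1909 exonic bases with Gm10143 and 130 with Tmem258, both on the plus strand. Gm10143 held 2.47, 4.15 and 3.57 CPM with vehicle and 3.15, 1.84 and 3.91 CPM with Dox. Tmem258 held 41.6, 39.6 and 44.1 CPM with vehicle and 45.7, 42.7 and 43.8 CPM with Dox.

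**Figure D3:**
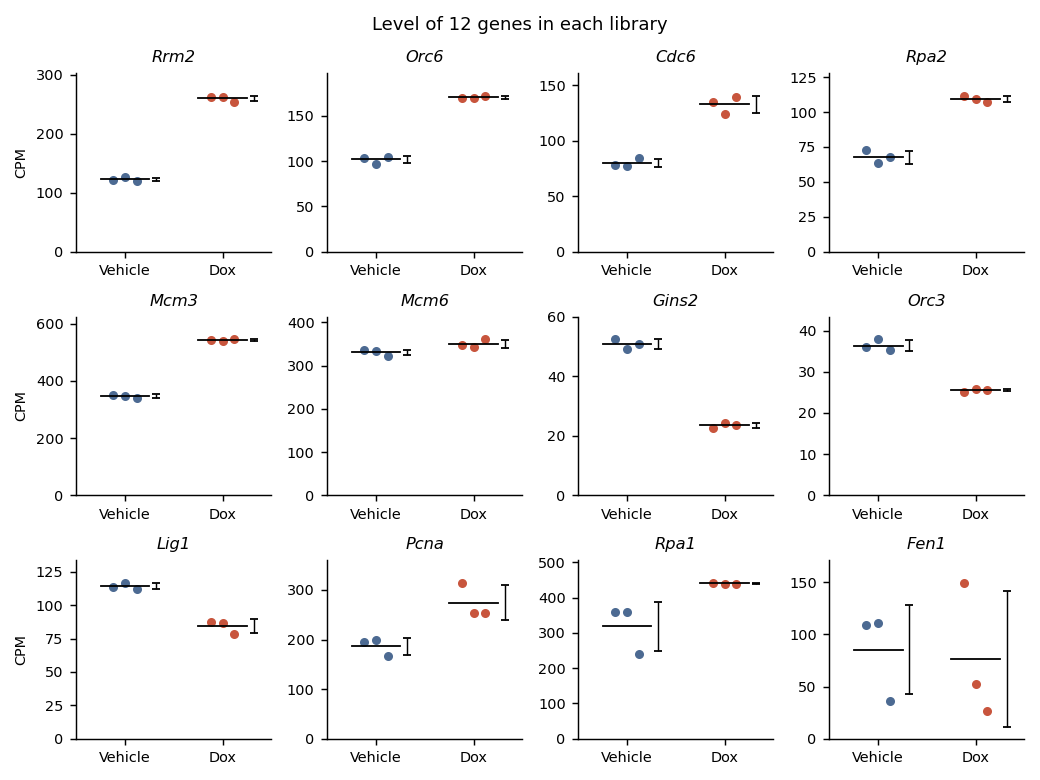
Level (CPM) of 12 genes in each library, with points for the 3 libraries of a group, a bar for their mean and an error bar for their SD. The groups are separate in all but Fen1, whose Dox libraries run from 26.2 to 149.6 CPM.

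Of the 5 nucleotide supply genes, 4 rose and 1 did not pass. Rrm2, the small subunit of ribonucleotide reductase that limits its activity in S phase, held 122, 126 and 121 CPM with vehicle and 263, 262 and 255 CPM with Dox, the largest rise of the 49 genes (2.12-fold, 1.08 ± 0.027 SE, adjusted p = 1.7e-06). Rrm1, the large subunit, held 423, 438 and 429 CPM with vehicle and 511, 517 and 535 CPM with Dox (1.21-fold, 0.28 ± 0.026 SE, adjusted p = 0.00015). In both genes the groups were separate, with the larger rise in Rrm2. Per length, Rrm2 stood at 56.0 ± 1.23 and Rrm1 at 108 ± 1.82 CPM per kb with vehicle, and at 119 ± 2.14 and 130.3 ± 3.04 with Dox (SD, n = 3). Rrm2 lies on the plus strand at chromosome 12, 24708241 to 24714146 (GRCm38) and shares fewer than 50 exonic bases with any other annotated gene. Tyms, which makes thymidylate, and Dut, which removes dUTP, rose by 0.24 and 0.20 on the log2 scale. Tk1, the thymidine kinase of S phase, had overlapping groups of 87.0 to 92.7 CPM with vehicle and 82.0 to 87.0 CPM with Dox (-0.081 ± 0.037 SE, adjusted p = 0.11).

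Among the 3 genes that act on chromatin behind the fork, 2 rose and 1 did not pass. Chaf1b, a subunit of the histone chaperone CAF-1, held 74.9, 76.2 and 74.2 CPM with vehicle and 103, 104 and 105 CPM with Dox (1.38-fold, 0.47 ± 0.025 SE, adjusted p = 1.4e-05). Chaf1a, its large subunit, held 137, 137 and 141 CPM with vehicle and 147, 141 and 141 CPM with Dox, which narrowly did not overlap and did not pass (0.052 ± 0.027 SE, adjusted p = 0.16). Chaf1a was called higher with upper-quartile scaling (0.15) and with the GC content and length offsets (0.13 and 0.19), and it shares 4648 exonic bases with Ubxn6, which fell by 0.26 on the log2 scale. Uhrf1, which guides maintenance methylation, rose by 0.17 on the log2 scale and by 0.27 with upper-quartile scaling.

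Ratios of partner genes within a library do not depend on library scaling. They can depend on the transcript length and GC content of the 2 genes, and the offsets for these were not applied to the ratios. Of 7 pairs compared, chosen with earlier results of these data known, 6 had separate groups. Each of the 6 had a 2-sided exact permutation p of 0.1 (0.117 adjusted over the 7 pairs). That is the smallest p that 3 against 3 libraries allow, so none could pass 0.05. The share of separate groups among other pairs of genes was not taken. Of all single genes tested, 31.8% had every Dox library above and 32.2% every Dox library below the vehicle libraries. Rrm2 over Rrm1 was 0.289, 0.288 and 0.281 with vehicle and 0.514, 0.508 and 0.476 with Dox (log2 difference 0.80). Pole over Pole2 was 5.23, 5.29 and 5.7 with vehicle and 7.15, 7.68 and 7.0 with Dox (0.43), and Prim1 over Prim2 was 1.79, 1.82 and 1.83 with vehicle and 2.07, 2.12 and 2.04 with Dox (0.20). In these 3 pairs every Dox library lay above every vehicle library. Pold1 over Pold2 was 1.15, 1.37 and 1.17 with vehicle and 0.874, 0.867 and 0.960 with Dox (-0.45). Chaf1a over Chaf1b was 1.83, 1.8 and 1.9 with vehicle and 1.43, 1.36 and 1.35 with Dox (-0.42), and Pola1 over Pola2 was 0.657, 0.713 and 0.701 with vehicle and 0.614, 0.620 and 0.608 with Dox (-0.17). In these the Dox libraries all lay below. As single genes, Pola1 and Pola2 had log2 fold changes of 0.15 and 0.18 with the length offset. With the GC content offset they had -0.028 and 0.26. The gap between them was thus narrower with the length offset and wider with the GC content offset. Cdt1 over Gmnn was 1.38, 1.49 and 1.35 with vehicle and 1.46, 1.52 and 1.35 with Dox, with overlapping groups (0.035, exact permutation p = 0.8).

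**Figure D4:**
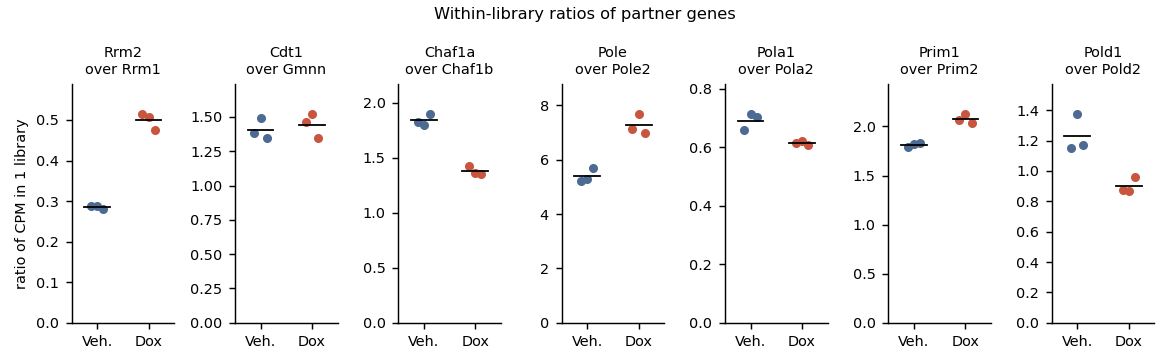
Ratio of the CPM of partner genes in each library (points; bar, mean of 3 libraries) for 7 pairs. The groups are separate in 6 pairs and overlap for Cdt1 over Gmnn, which stays between 1.35 and 1.52.

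The other genes of the pathway were taken from 6 lists of 68 genes, of which 67 were in the table and were tested. Of the 67, 38 were higher, 17 lower and 12 did not pass, beside 25.9% higher and 28.8% lower of all genes tested, and their median log2 fold change was 0.24. Upper-quartile scaling gave 40 higher and 11 lower, beside 34.6% and 24.7% of all genes. By list, rises outnumbered falls among origin firing factors (5 higher and 2 lower of 9), fork protection genes and alternative loaders (6 and 2 of 10), small polymerase subunits, topoisomerases and nucleases (7 and 2 of 10) and purine and pyrimidine synthesis (14 and 4 of 20). Deoxynucleotide metabolism had 4 higher and 5 lower of 10 (median -0.12), and chromatin replication 2 and 2 of 8 (median -0.031). The median was 0.25 to 0.33 in the other 4 lists.

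Among the fork genes, Clspn, the checkpoint mediator claspin, rose from 124 ± 2.24 to 217 ± 2.64 CPM on average (± SD over 3 libraries a group; 0.80 ± 0.024 SE, adjusted p = 2.4e-06), and Chtf8, a subunit of an alternative clamp loader, fell from 141 ± 3.93 to 70.8 ± 4.86 CPM (-1.0 ± 0.054 SE, adjusted p = 1.5e-05). Chtf8 was not matched to a GENCODE M21 gene. Its exonic overlaps were therefore not checked, and the offsets had no GC content or length of its own. Recql4, a helicase needed for origin firing, rose by 0.69 on the log2 scale, and Mcmbp, a binding partner of MCM proteins, fell by 0.091, which upper-quartile scaling turned to 0.0025 (adjusted p = 0.94). The Mcmbp call also ended with no filter, with the length offset and without Dox replicate 2 (0.055 to 0.95). Recql4 shares 422 exonic bases with Mfsd3. The nuclease and helicase gene Dna2 rose by 0.87 and the polymerase epsilon subunit Pole4 fell by 0.36, a call that ended with upper-quartile scaling (adjusted p = 0.075) and without any 1 library other than Dox replicate 1 (0.052 to 0.087). Of the histone chaperones, Asf1b rose by 0.53 and Nasp fell by 0.41.

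In nucleotide metabolism, salvage and breakdown genes moved in both directions. Dck, which phosphorylates deoxycytidine, rose from 96.2 ± 4.74 to 172 ± 3.94 CPM on average (± SD over 3 libraries a group; 0.84 ± 0.042 SE, adjusted p = 1.1e-05). Cda, cytidine deaminase, fell from 13.6 ± 0.614 to 4.67 ± 0.497 CPM (2.91-fold, -1.54 ± 0.088 SE, adjusted p = 1.9e-05). Impdh2, an isozyme of the committed step of guanine nucleotide synthesis, rose by 0.69 on the log2 scale (adjusted p = 4e-06), and Ctps2, an isozyme of CTP synthase, fell from 207 ± 3.54 to 104 ± 3.48 CPM (-0.99 ± 0.032 SE, adjusted p = 2.8e-06).

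**Figure D5:**
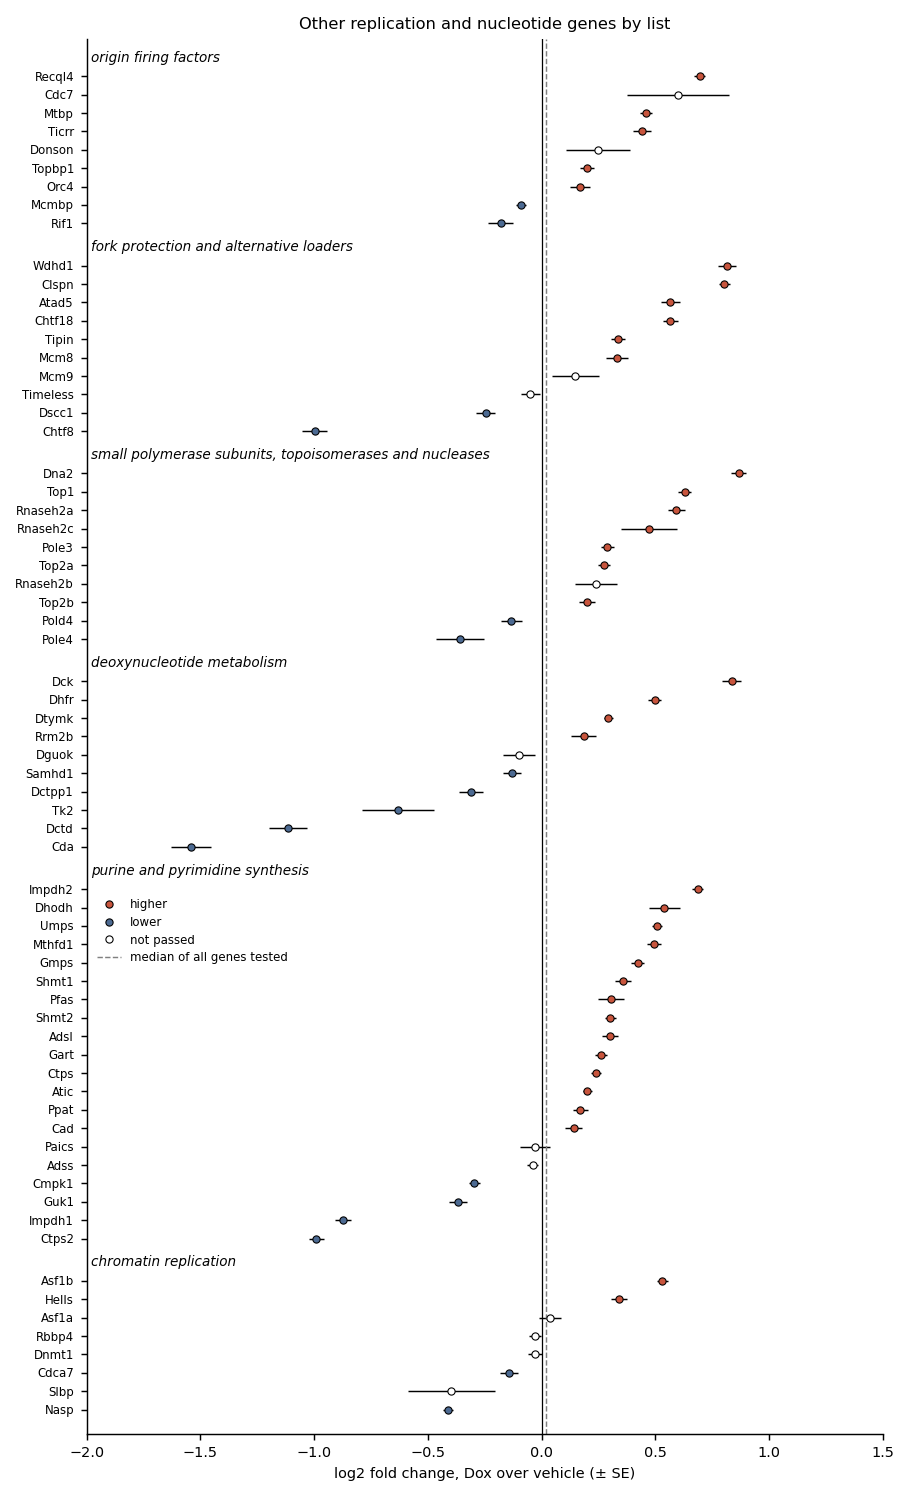
Log2 fold change, Dox over vehicle, with its SE from edgeR, of 67 further genes of replication and nucleotide synthesis in 6 lists; filled points passed the test (red higher, blue lower) and the dashed line is the median of all genes tested. Cda is the lowest at -1.54 and Dna2 the highest at 0.87.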

How the data were processed

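RNA from 6 libraries was TRIzol-extracted per the labels' protocols. Tools named in the submitters' processing notes are HISAT2 2.1.0, StringTie 1.3.3, FastQC 0.11.3 and DESeq2, on GRCm38. Not given in the sources used here are the annotation, strandedness and treatment of multi-mapping reads. The authors deposited unnormalized whole-number counts for 29493 gene symbols (0 rows lack a name). Their comparison table gives, per the file headers, a mean signal, log2 fold changes with errors, a test score and p-values.

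Columns were matched to samples through the labels' descriptions. filterByExpr kept 18067 genes, TMM factors were 0.970 to 1.03, and edgeR 4.0.16 (quasi-likelihood test, limma 3.58.1, R 4.3.3) was fitted to all 6 libraries without covariates, with p-values adjusted by Benjamini-Hochberg over all genes (threshold 0.05). Each SE is the log2 fold change divided by the square root of F, and the common BCV came to 12.0%. The fit was tested on simulated data, with changes planted in genes drawn at random from all genes tested. It recovered 8 of 50 genes planted at 1.25-fold, 23 of 50 at 1.5-fold, 36 of 50 at 2-fold and 45 of 50 at 4-fold. Of 17867 genes with no planted change, 9 were called. The simulated fit tested 17800 genes, so some of these were not tested. Few genes had a planted change, whereas 54.7% of genes passed in the data. The adjusted threshold was thus stricter in the simulation, and its rates do not carry over to the data. Replicates varied beyond sampling noise, with chi-square values of 12.1 to 15.1 per degree of freedom.

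The 49 genes, the other lists and the pairs were chosen with earlier results of these data known. Values in every library are given for the 12 largest changes past the test, the smallest p of each role, each gene called lower, each gene of a pair and the 3 largest p, and for Pcna, Rpa1 and Mcm6, added after their values were seen. From each other list the gene of smallest p in each direction is named. Positions, lengths and overlaps come from GENCODE M21 (GRCm38), which matched all 49 genes and 27367 of the 29493 symbols and may not be the authors' annotation. Other settings were size factors of DESeq2, upper-quartile scaling, the Wald test of DESeq2 1.42.0, limma-voom, no filter, mean CPM of at least 5, a replicate block, adjusted p under 0.01, glmTreat against 1.2-fold, GC content and length offsets, 1 CPM added in ratios, and each library left out.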

Additional observations from a re-analysis of the deposited data

How the results depend on the processing

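Over the alternatives run on the 49 genes, 25 to 39 were higher and 3 to 8 lower. Of all genes tested under the same settings, 13.4 to 35% were higher and 16.6 to 35.9% lower. The count of genes lower was 3 with glmTreat against a 1.2-fold change, which called 6032 of all genes (13.4% higher and 20% lower). It was also 3 among the genes with no exonic overlap of at least 50 bases. The median of the 49 genes, 0.36, was 0.46 with upper-quartile scaling, 0.39 with the GC content offset, 0.41 with the length offset, and 0.31 to 0.39 without 1 library, lowest without Vehicle replicate 3 and highest without Dox replicate 2. Counts for the other 67 genes, 38 higher and 17 lower, were 11 lower with upper-quartile scaling (24.7% of all genes tested) and 10 lower at an adjusted p under 0.01 (23.8%). With glmTreat they were 21 higher and 8 lower. Among the 49 genes, the ratios and the further genes named, signs turned for Dbf4 (0.029), Tk1 (0.013) and Mcmbp (0.0025) with upper-quartile scaling, Tk1 (0.011), Pola1 (-0.028) and Pold1 (0.049) with the GC content offset, Pola1 without Vehicle replicate 1 (-0.013, in a range of -0.013 to 0.051 without 1 library), Fen1 without Vehicle replicate 1 (0.054), Vehicle replicate 2 (0.069), Dox replicate 2 (0.044) or Dox replicate 3 (0.25), in a range from -1.10 without Dox replicate 1, and the Cdt1 over Gmnn difference without Dox replicate 2 (-0.00384, in a range to 0.083 without Dox replicate 3). The length offset called Dbf4 (-0.073) and Tk1 (-0.12) lower, and the GC content offset called Dbf4 lower (-0.086). The causes were not tested. Of the values of the 49 genes under the alternatives, 772 kept their direction and side of the threshold, 43 lost the call, 8 gained one and 10 turned sign.

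The groups share replicate numbers, but the deviations of same-numbered libraries correlated at 0.039, 0.044 and -0.075 across 14635 genes, and the samples were not treated as paired. With the replicate block, 36 of the 49 genes were higher and 5 lower, beside 25.5% and 28.2% of all genes tested. In all, 9699 genes were called, and the Pole2 and Mcm6 calls were lost (adjusted p = 0.081 and 0.085). For the ratios, the mean difference within same-numbered libraries equals the difference of group means by arithmetic, and 3 pairs cannot give an exact p below 0.25.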

Other observations

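In 2 pairs of isozymes of nucleotide synthesis, picked after their values were seen, the members moved in opposite directions. This was not general: Shmt1 and Shmt2 both rose, by 0.36 and 0.30 on the log2 scale, as did Rrm2 and Rrm2b, by 1.08 and 0.18. The Rrm2b call ended with no filter, with the GC content offset and without Vehicle replicate 1 or 2 or Dox replicate 2 or 3 (edgeR adjusted p = 0.063 to 0.095). Impdh1 and Impdh2 catalyse the same step of guanine nucleotide synthesis. Impdh1 held 80.9, 77.8 and 77.3 CPM with vehicle and 43.1, 44.1 and 41.8 CPM with Dox, and Impdh2 held 197, 194 and 193 CPM with vehicle and 318, 305 and 317 CPM with Dox. The first fell by 0.87 and the second rose by 0.69 on the log2 scale (edgeR adjusted p = 5.1e-06 and 4e-06), and in neither did the groups overlap. The CTP synthases did likewise: Ctps held 360.0, 364 and 358 CPM with vehicle and 422, 419 and 434 CPM with Dox and Ctps2 held 203, 206 and 210.3 CPM with vehicle and 101, 103 and 108 CPM with Dox, log2 fold changes of 0.24 and -0.99. Cda and Dctd, the deaminases of cytidine and of deoxycytidylate, were the lowest of the 67 further genes, and Dctd held 15.8, 17.7 and 16.5 CPM with vehicle and 8.48, 7.58 and 7.07 CPM with Dox (2.17-fold lower, adjusted p = 5.7e-05).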
